A study of Mus musculus with 18 samples.

Results

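The clustered protocadherins are cell surface adhesion proteins of the cadherin family, encoded by 3 gene clusters, alpha, beta and gamma, that lie one after another on chromosome 18. All protein-coding genes of the expression table whose symbol begins with Pcdha, Pcdhb or Pcdhg were taken. They numbered 57 of 48795 genes, with 14 in the alpha, 22 in the beta and 21 in the gamma cluster. In the mouse GRCm38 build with GENCODE vM21 gene models, the alpha genes span 36930184 to 37187661, the beta genes 37264938 to 37524479 and the gamma genes 37661793 to 37841873 of that chromosome.

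Each alpha or gamma gene has its own large first exon, which encodes the extracellular and transmembrane parts, spliced to exons that are shared by the whole cluster and encode a common cytoplasmic end. Beta genes are single-exon genes with no shared end. In neurons, promoters of the clusters are chosen at random through CTCF, cohesin and an enhancer contact, while DNA methylation and the chromatin protein Smchd1 keep the others silent. The chosen proteins bind only to matching sets on another cell and so mark cell identity. The C-type members at the end of the alpha and gamma clusters (Pcdhac1, Pcdhac2, Pcdhgc3, Pcdhgc4 and Pcdhgc5) are known to follow other rules of expression than the rest.

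The RNA came from GL261, a mouse glioma line labelled with green fluorescent protein (GFP) and grown in culture or as tumours in C57BL/6 mice. Hosts were wild type (WT) or Pfp/Rag2 -/-, which lack perforin, a killing protein of lymphocytes, and Rag2, needed to form T and B cells. Of 6 groups with 3 libraries each, 3 were GFP+ cells: sorted from WT tumours, sorted from Pfp/Rag2 tumours, and the cultured cells used for injection, also sorted per the labels. The other groups were unsorted tumour cells of each host and GFP- cells sorted from WT tumours. Mice were symptomatic, and their age is not given in the sources used here. The same cell line was injected in both hosts, so in sorted GFP+ cells the host genotype differs and the tumour genotype does not.

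Each library held 19172814 to 21141662 reads. Levels are normalized counts (reads divided by a size factor per library), given as mean ± SD with n = 3. Differences are log2 of the normalized count plus 1, with their standard error (SE), and understate changes of low genes. Calls rest on limma with Benjamini-Hochberg adjustment over all genes tested, at an adjusted p under 0.05. Whether each library is 1 mouse or a pool is not stated in the labels, so p-values reflect spread among libraries, which may be technical. In unsorted tumours, fewer cells of a type and less RNA per cell cannot be told apart. Rag2 had 0 reads in every WT tumour library, 5, 7 and 4 in unsorted Pfp/Rag2 and 5, 0 and 0 in Pfp/Rag2 GFP+ libraries. Prf1, the perforin gene, had 110 to 160 reads in unsorted WT and 8 to 18 in unsorted Pfp/Rag2 libraries. In sorted GFP+ cells it had 123 reads in WT library 1 and 128 in Pfp/Rag2 library 1, against 1 to 11 in the other 4 libraries. Because of these libraries, the main host results in GFP+ cells are also given without both libraries numbered 1.

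The 3 clusters were used very unequally in GFP+ cells. The alpha cluster was almost silent, the beta cluster was broadly active at low level, and the gamma cluster was dominated by 1 gene, Pcdhgc3. All 14 alpha genes together had 0, 0 and 3 reads in the WT GFP+ libraries, 1, 2 and 3 in Pfp/Rag2 GFP+ and 0, 0 and 0 in culture. Beta genes summed to a normalized count of 1148.5 ± 155 in WT GFP+, 2215 ± 63.5 in Pfp/Rag2 GFP+ and 426 ± 35.1 in culture. The gamma sums were 3264 ± 162, 2732 ± 91.7 and 2954 ± 54.9 in the same order. GFP- cells of WT tumours had 122 ± 79.1 for beta and 334 ± 164 for gamma, and the means of GFP+ cells of the same hosts were 9.44-fold and 9.78-fold higher. Without GFP- library 3, which was the highest (213 for beta against 78.0 and 73.9), the folds were 15.1 and 13.6.

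**Figure D1:**
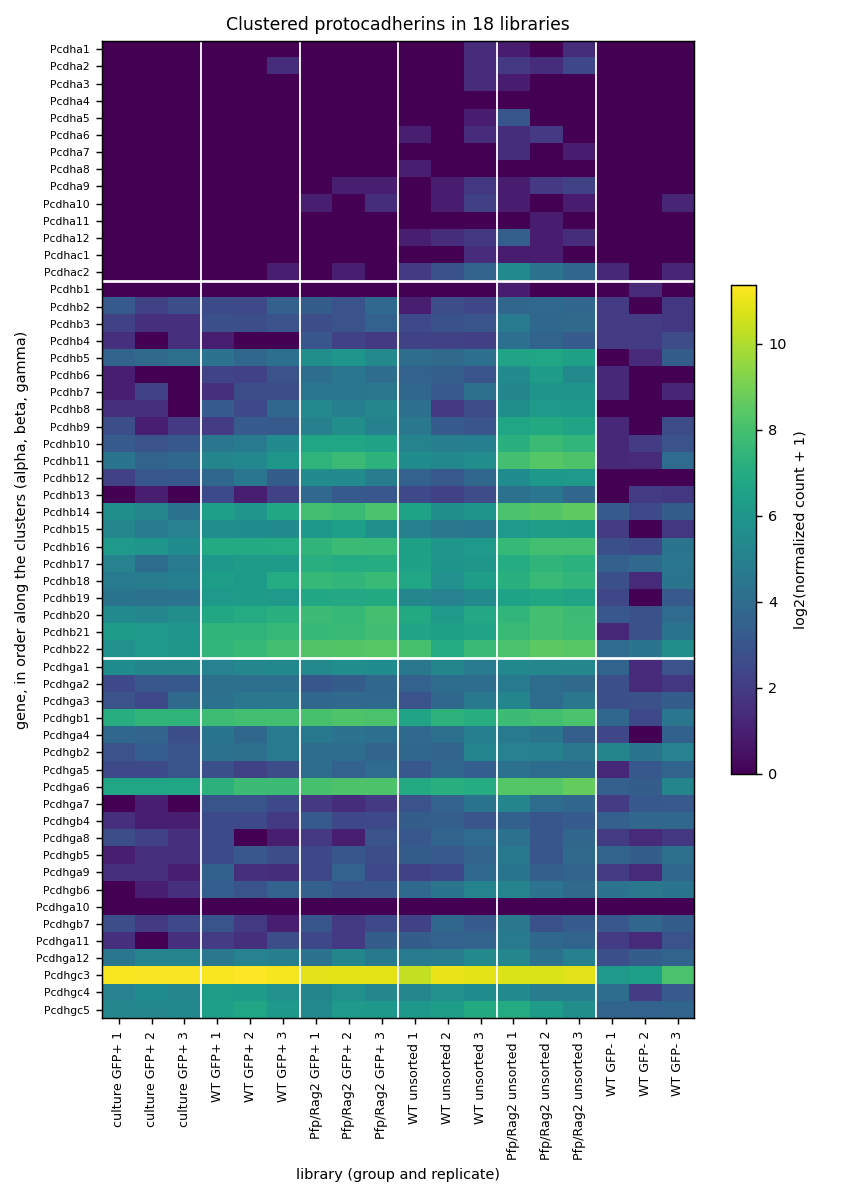
Level of the 57 clustered protocadherins (vertical, in cluster order) in the 18 libraries (horizontal, grouped), coloured by log2(normalized count + 1). Alpha genes are near 0 in all GFP+ libraries, beta genes are higher in Pfp/Rag2 than in WT tumours, and Pcdhgc3 is the brightest row in every group.

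Some members could not be judged. Reads were counted per gene, so the shared exons of alpha and gamma tell no gene apart, and a level per kilobase (kb) was computed over the exonic bases that no other gene covers on the same strand. Pcdhga10 had no read in any library, and a gene on the opposite strand covers all 2613 of these bases. Pcdha4 also had no read, with 494 own bases, and Pcdha11 had 1 read. Of 35 protein-coding genes genome-wide with every base covered from the opposite strand, 27 (77.1%) had no read, against 18.5% of 15340 genes with no base covered. How the authors' counter treated strand is not given in the sources used here. Opposite-strand genes also cover 1559 of 3380 own bases of Pcdhgc3 and 1927 of 3034 of Pcdhb12, whose levels are uncertain to that extent.

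In the alpha cluster, every member stayed under the filter (10 or more normalized counts in 3 or more libraries of a comparison) in the 4 comparisons between sorted or cultured groups. The 4 members highest per kb in GFP+ cells were Pcdha10, Pcdha9, Pcdha2 and Pcdhac2, each with at most 2 reads in a GFP+ library. Pcdhac1, the other C-type gene, had no read in any of the 9 GFP+ libraries, which allows up to 3 reads per library. Unsorted WT tumours had 6, 11 and 34 reads for the cluster, and unsorted Pfp/Rag2 tumours had 79, 32 and 29. Pcdhac2 alone gave 3, 7 and 13 of them in the former and 48, 21 and 14 in the latter. The groups did not overlap, yet the difference for Pcdhac2 was not called (log2 -1.71, SE 0.585, limma adjusted p = 0.0637). Neuron markers moved alongside: 10 of them summed to 9604, 3008 and 2740 in Pfp/Rag2 unsorted libraries and to 1495, 1480 and 2996 in WT. Their part in the alpha reads was not tested.

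In the beta cluster, 21 of 22 genes had reads in tumour GFP+ cells and the signal was spread over many of them. Pcdhb1 was the exception, with no read in the 9 GFP+ libraries. Pcdhb21 led in WT GFP+ cells with 16.8% ± 1.27 of the beta signal per kb, followed by Pcdhb20 (14.5% ± 0.77), Pcdhb22 (13.6% ± 0.616) and Pcdhb16 (9.70% ± 1.12). Pcdhb21 also led in culture (16.7% ± 1.23), whereas Pcdhb20 led in Pfp/Rag2 GFP+ cells (13.2% ± 1.88) and Pcdhb21 had 10.3% ± 0.704 there. The order of the 22 genes by level per kb was much alike between groups: Spearman's rho was 0.95 between WT GFP+ and culture and 0.948 between WT and Pfp/Rag2 GFP+. These are descriptions over genes of the same libraries and carry no test.

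Evenness was described by the effective number of isoforms. The effective number, the exponential of the Shannon entropy of the shares (it would be 22 if all beta genes were equal), was 12.5 ± 0.2 in WT GFP+, 12.5 ± 0.454 in culture and 14.9 ± 0.43 in Pfp/Rag2 GFP+ cells. Unsorted tumours had 13.9 ± 0.566 in WT and 16.5 ± 0.329 in Pfp/Rag2 hosts. Each Pfp/Rag2 library was above each WT library, with 14.4 as the lowest against 12.8 as the highest in GFP+ cells and 16.3 against 14.5 in unsorted tumours. Genes in the first part of the cluster, Pcdhb1 to Pcdhb11, supplied 13.1%, 13.5% and 17.4% of the beta signal in the WT GFP+ libraries and 26.5%, 28.9% and 24.7% in Pfp/Rag2 GFP+. Cultured cells had 17.5%, 14.1% and 16%, overlapping WT tumours and below all Pfp/Rag2 libraries.

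In the gamma cluster, Pcdhgc3 supplied most of the signal per kb in all GFP+ groups. Its share was 82.2% ± 0.631 in culture, 72.9% ± 1.34 in WT GFP+ and 64.7% ± 0.836 in Pfp/Rag2 GFP+ cells, and the 3 groups did not overlap. The next were Pcdhgb1, with 6.72% ± 0.732, 9.18% ± 0.517 and 12.4% ± 0.407 in the same order, and Pcdhga6, with 4.36% ± 0.147, 7.62% ± 1.29 and 12.4% ± 0.287. Pcdhgc4, another C-type gene, had means of 1.22%, 1.96% and 1.39%. GFP- cells used the cluster more evenly: Pcdhgc3 had 36.1% ± 11.4, and the effective number was 10.4 ± 2.3 against 3.08 ± 0.0991 in WT GFP+. If only bases free of other genes on either strand are used as length, a choice made after seeing the data, the Pcdhgc3 shares become 89.3% in culture, 83.0% in WT and 77.0% in Pfp/Rag2 GFP+ cells, in the same order.

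**Figure D2:**
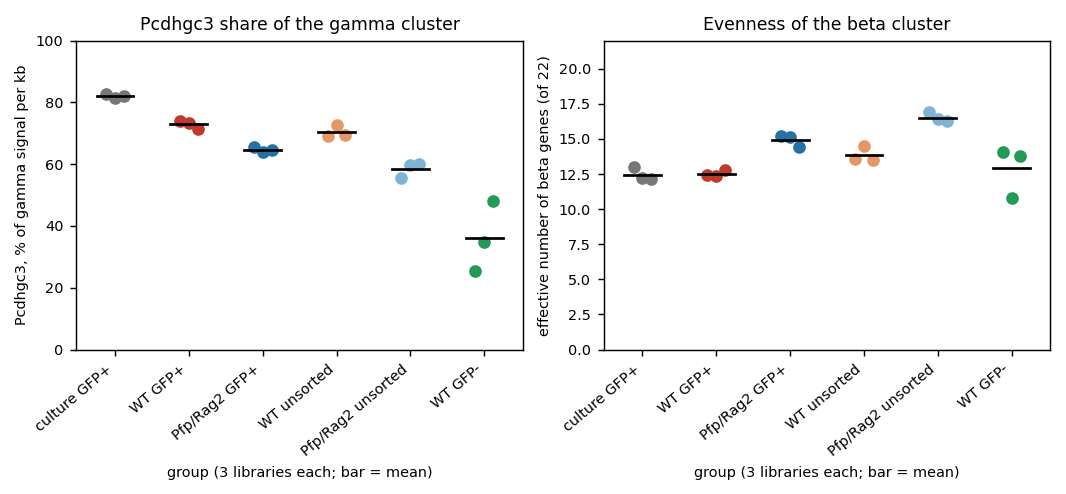
Left, share of the gamma signal per kb that comes from Pcdhgc3 (%); right, effective number of beta genes (of 22); horizontal, the 6 groups with 3 libraries each (points) and their mean (bar). The Pcdhgc3 share is highest in culture (82.2%). Among the GFP+ groups, Pfp/Rag2 hosts have the lowest Pcdhgc3 share (64.7%) and the most even use of the beta cluster (14.9). Unsorted Pfp/Rag2 tumours are the most even of all 6 groups (16.5).

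The host comparison asks what growth in a host without perforin and mature lymphocytes changes in the tumour cells. Beta genes were lower in GFP+ cells from WT than from Pfp/Rag2 tumours, and Pcdhgc3 was higher. Of 57 members 29 were tested, 1 was higher and 17 were lower in WT, while 30.4% of all 14807 genes tested were called, 15.3% higher and 15.0% lower. The lower ones were 15 of 17 tested beta genes and the gamma genes Pcdhga5 and Pcdhga6. The median log2 difference of the tested members was -0.66 against -0.02 over all genes. Over all 22 beta genes, tested or not, the WT libraries all lay below the Pfp/Rag2 libraries for 19 and above them for 0, where this held for 15.3% and 14.6% of all 28416 genes with a read in either group. Pcdhb6, Pcdhb7, Pcdhb9 and Pcdhga5 did not reach 10 in any WT library, so they passed the filter only through the Pfp/Rag2 group and had to differ. They are given as values with no test. Of the 14 tested beta genes that reached 10 in a library of each host, 12 were lower in WT. Among the 14, Pcdhb8 and Pcdhb12 did not reach 10 in every WT library.

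Large differences lay in the first part of the beta cluster. Pcdhb11 had 35.4, 38.0 and 63.5 in WT against 167, 210.3 and 163 in Pfp/Rag2 (log2 -2.0, SE 0.251, limma adjusted p = 0.00207). Pcdhb10 had 21.1, 25.7 and 44.2 against 100.5, 101 and 93.0 (log2 -1.73, SE 0.284, limma adjusted p = 0.00535). Pcdhb8 had 8.62, 4.75 and 12.9 against 39.3, 29.4 and 37.8 (log2 -1.98, SE 0.378, limma adjusted p = 0.00942). In each of these genes the lowest Pfp/Rag2 library was above the highest WT library. Among those that passed through Pfp/Rag2 alone, Pcdhb9 was at 2.87, 8.55 and 8.29 in WT and 30.1, 47.8 and 30.4 in Pfp/Rag2. Pcdhb7 had means of 4.38 ± 2.14 and 21.4 ± 0.603, and Pcdhb6 had 4.69 ± 1.52 and 17.7 ± 2.96.

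Differences had smaller values at the end of the cluster. Pcdhb20, one of the leading beta genes, had 109, 125 and 149 in WT and 223, 196 and 261 in Pfp/Rag2 (log2 -0.82, SE 0.165, limma adjusted p = 0.0113). Pcdhb22 had 179, 195 and 249 against 306, 322 and 335 (log2 -0.64, SE 0.137, limma adjusted p = 0.0139). Pcdhb16 had 124, 123 and 125 against 171, 210.3 and 210.0 (log2 -0.66, SE 0.126, limma adjusted p = 0.00957). These groups did not overlap either. Pcdhb21 was at 172, 165 and 188 against 196, 208 and 231 and was not called (log2 -0.27, SE 0.113, limma adjusted p = 0.11), nor was Pcdhb15 (log2 -0.53, limma adjusted p = 0.111).

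Along the cluster, 4 of the first 11 genes and 10 of the last 11 reached 10 in a library of each host. Pcdhb8 of the 4 and Pcdhb12 of the 10 did not do so in every WT library. The 4 had a median log2 difference of -1.86 (range -2.0 to -1.53) and the 10 had -0.74 (range -1.56 to -0.27), as a description with no test. Over all genes of each part, tested or not, Pcdhb1 to Pcdhb11 were 3.56-fold and Pcdhb12 to Pcdhb22 1.72-fold as high in Pfp/Rag2 as in WT GFP+ cells. Tested genes of the first part also had lower means in WT GFP+ cells (4.38 to 45.7) than most of the last part (14.5 to 207.5); the part of level in this pattern was not tested. The 5 untested beta genes had at most 15 reads in a library; among them Pcdhb4 had 15 reads in Pfp/Rag2 and 1 in WT GFP+ libraries, a ratio of 14.6 with an exact Clopper-Pearson 95% interval of 2.25 to 615, which covers counting error only.

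**Figure D3:**
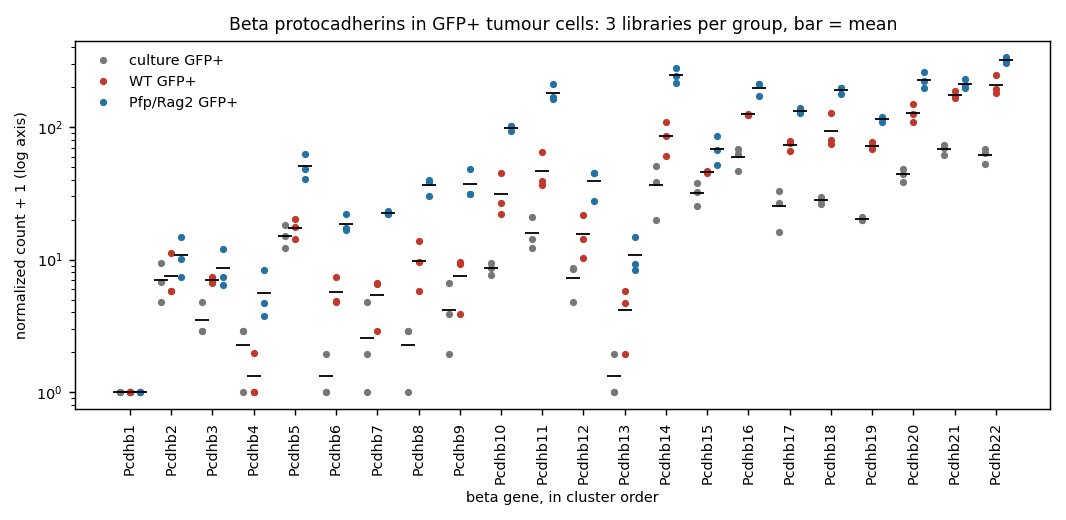
Normalized count plus 1 (vertical, log axis) of the 22 beta genes in cluster order (horizontal) in GFP+ cells; points are libraries, 3 per group, and bars their mean. From Pcdhb4 to Pcdhb22 the Pfp/Rag2 libraries stand above both other groups, though for Pcdhb21 they lie close to WT GFP+ (196 to 231 against 165 to 188).

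In the gamma cluster the host difference ran both ways. Pcdhgc3 had 2443, 2633 and 2375 in WT and 1851, 1918 and 1893 in Pfp/Rag2, with no overlap (log2 0.39, SE 0.0534, limma adjusted p = 0.00274). Pcdhga5 had 5.75, 3.8 and 5.53 against 15.5, 11 and 14.7, and passed the filter through Pfp/Rag2 alone. Pcdhga6, the third gamma gene by level, had 158, 222 and 223 against 265, 289 and 287 (log2 -0.50, SE 0.153, limma adjusted p = 0.0475), and this call was lost with edgeR (adjusted p = 0.0599) and when any of 5 single libraries was left out. Pcdhgb1 (log2 -0.21, limma adjusted p = 0.125), Pcdhgc4 (0.70, limma adjusted p = 0.0737) and Pcdhgc5 (0.55, limma adjusted p = 0.163) were not called.

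Without both GFP+ libraries numbered 1, 9 of 29 members tested were called, 1 higher and 8 lower. Over all 14807 genes tested, 1264 were then higher and 1076 lower, against 2269 and 2228 with all 6 libraries. The 8 lower members include Pcdhb7 and Pcdhb9, which passed the filter through Pfp/Rag2 alone and carry no test. Pcdhgc3 was then at a log2 of 0.39 (limma adjusted p = 0.0233), Pcdhb11 at -1.89 (0.0104) and Pcdhb10 at -1.5 (0.0264), while Pcdhb8 (-1.94, 0.0524), Pcdhb20 (-0.72, 0.055) and Pcdhb22 (-0.58, 0.0529) kept their direction and lost the call. The Pcdhgc3 share was then 72.4% in WT and 64.3% in Pfp/Rag2, and the effective number of beta genes 12.6 and 14.8. In a fit of all 18 libraries 0 of 41 members tested were higher (Pcdhgc3 at a limma adjusted p of 0.464) and 9 lower. Over all 17511 genes tested in that fit, 1494 were higher and 1477 lower. Marker lists of brain and stromal cell types also differed between the same GFP+ libraries, and cultured tumour cells expressed some of these markers too. The 8 pericyte and fibroblast markers summed to 490.3, 537 and 936 in WT and 5151, 3121 and 2093 in Pfp/Rag2, and 5 of 7 tested were lower in WT. Cultured cells had 2161 to 2336 for this list. The 6 markers of oligodendrocyte precursors summed to 9739, 9792 and 14330 against 19860, 20610 and 19140, and to 6732 to 6795 in culture, with 1 of 6 higher and 3 lower in WT. GFP- cells of WT tumours had 697.5 to 2088 for this list. The 8 oligodendrocyte markers summed to 4399, 4391 and 9975 against 11280, 9622 and 9760, with 4 of 7 tested lower in WT, and to 35900 to 38170 in culture. The 10 neuron markers summed to 456.8, 392.4 and 853.7 against 718, 747 and 868.5, with Gad2 at 0 in all WT libraries. By limma 0 of the 6 tested were called, with 2 lower at an unadjusted p under 0.05, and edgeR and DESeq2 called 0. In Pfp/Rag2 libraries the pericyte sums differed 2.46-fold between libraries while the beta sums were 2151, 2216 and 2278. WT library 3 was highest of its group in the beta sum (1327 against 1049 and 1070) and in these 4 marker sums. The 10 endothelial markers summed to 2228, 2269 and 3042 in WT and 3636, 2449 and 2407 in Pfp/Rag2 GFP+ libraries. By limma 1 of them was higher and 0 lower in WT, with 8 lower at an unadjusted p under 0.05, and DESeq2 called 2 lower. Whether tumour cells or other cells expressed these markers was not tested, nor was their part in the beta result.

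In unsorted tumours beta genes were again lower in WT than in Pfp/Rag2 hosts. Of 57 members 39 were tested, 0 were higher and 21 lower in WT, against 29.9% of all 15448 genes called. The lower ones were 19 of 20 tested beta genes, Pcdhga6 and Pcdhgb1. Pcdhb2, Pcdhb3 and Pcdhb13 stayed under 10 in each WT library and passed the filter through Pfp/Rag2 alone. Of the other 17 beta genes 16 were lower. Among the 17, Pcdhb6, Pcdhb7, Pcdhb8, Pcdhb9 and Pcdhb12 did not reach 10 in every WT library. For these the Pfp/Rag2 group alone met the filter, which limits their tests. At an unadjusted p under 0.05 and with edgeR or DESeq2 no member was higher either. Pcdhb9 had 22.1, 9.0 and 6.97 in WT and 103, 119 and 97.4 in Pfp/Rag2 (log2 -3.13, SE 0.407, limma adjusted p = 0.00196). Pcdhb11 had 45.2, 38.7 and 47.0 against 249, 324 and 292 (log2 -2.69, SE 0.174, limma adjusted p = 0.000144). In both genes each Pfp/Rag2 library was above each WT library.

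Other large differences in unsorted tumours were those of Pcdhb8 (log2 -3.05, SE 0.554), Pcdhb5 (-2.58, SE 0.207), Pcdhb10 (-2.53, SE 0.204) and Pcdhb12 (-2.37, SE 0.299), with limma adjusted p of 0.00702, 0.000326, 0.000328 and 0.00176. Pcdhga6 had 124, 143 and 131 against 333, 332 and 404 (log2 -1.42, SE 0.137, limma adjusted p = 0.00063), and Pcdhgb1 was lower by a smaller step (log2 -0.95, limma adjusted p = 0.0147). Pcdhgc3, at 1749 ± 429 and 1729 ± 110.1, did not differ detectably (log2 -0.01, SE 0.179, limma adjusted p = 0.961). Pcdhb22 was the only tested beta gene not called (log2 -0.75, limma adjusted p = 0.0712). Summed macrophage and microglia markers were 19450 to 32660 in WT and 6655 to 7909 in Pfp/Rag2 unsorted libraries, with 11 of 12 higher in WT; their part in the lower beta level of WT tumours was not tested.

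The sorted and unsorted comparisons share no library. Of 29 members tested in both, 15 were called lower in WT in both (51.7%), 2 in GFP+ but not in unsorted and 3 in unsorted but not in GFP+ cells. Over all 14333 genes tested in both, 7.58% were called lower in both. The 29 include Pcdhb6, Pcdhb7, Pcdhb9 and Pcdhga5, whose direction in GFP+ cells was fixed by the filter. Pcdhb6, Pcdhb7 and Pcdhb9 are among the 15. The share without these genes was not computed. Across these 29, Spearman's rho of the log2 differences was 0.862 and Pearson's r 0.881, as a description. In unsorted tumours Pcdhb1 to Pcdhb11 were summed 6.05-fold and Pcdhb12 to Pcdhb22 2.5-fold as high in Pfp/Rag2 as in WT hosts.

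**Figure D4:**
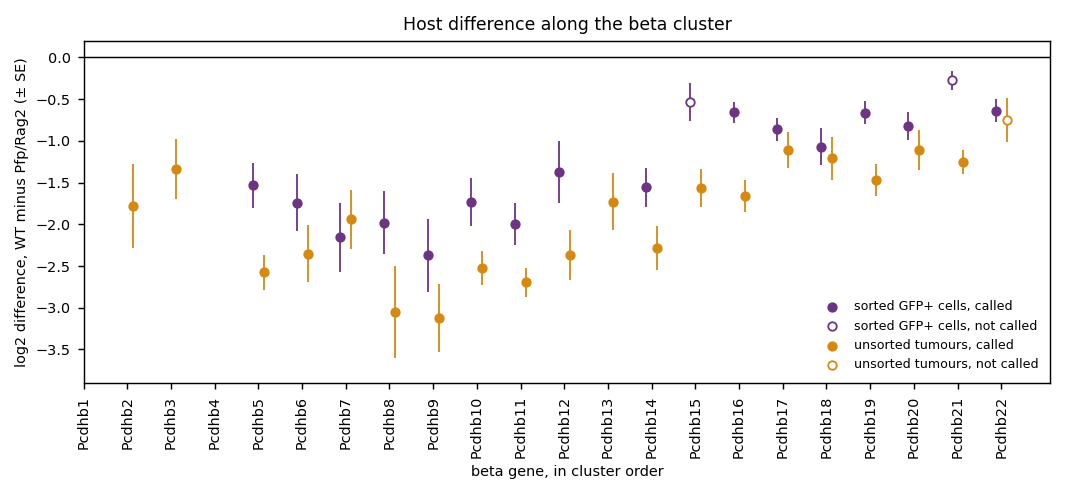
Log2 difference, WT minus Pfp/Rag2, with SE (vertical), of each tested beta gene in cluster order (horizontal) in sorted GFP+ cells (purple) and unsorted tumours (orange); filled points were called. All points are below 0. Pcdhb6, Pcdhb7 and Pcdhb9 in sorted cells and Pcdhb2, Pcdhb3 and Pcdhb13 in unsorted tumours passed the filter through Pfp/Rag2 alone. Their filled points carry no test. The other sorted values run from -2.0 at Pcdhb11 to -0.27 at Pcdhb21.

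Whether the host difference itself differed between sorted and unsorted cells was tested as an interaction in the 12 libraries. Of 39 members tested, 1 was called, Pcdhb21, in the positive direction, against 0.934% of all 16161 genes called and 0.712% in that direction. Its host difference was smaller in GFP+ cells (log2 -0.27) than in unsorted tumours (log2 -1.25), a difference of 0.98 (SE 0.17, limma adjusted p = 0.0312). Neither edgeR (adjusted p = 0.0575) nor a limma fit of all 18 libraries gave this call, which was also lost without any 1 of 9 of the 12 libraries (limma adjusted p of 0.0627 to 0.0982). For the other 38 members a difference between sorted and unsorted cells was not shown.

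The comparisons with culture ask what growth as a tumour changes. Both use the same 3 culture libraries, so their results are not independent. In WT GFP+ cells 18 of 23 tested members were higher than in culture and 0 lower, where 65.6% of all 14261 genes were called, 30.3% higher and 35.3% lower. These were 11 of 12 tested beta and 7 of 11 tested gamma genes. Pcdhb10, Pcdhga2 and Pcdhgb2 stayed under 10 in culture and passed the filter through the tumour cells alone; of the other 20 members 15 were higher. At an unadjusted p under 0.05 no member was lower, and edgeR and DESeq2 gave 0 lower as well, while quantile normalization gave 1. Pcdhb19 had 67.0, 77.0 and 70.9 in WT GFP+ and 19.8, 18.9 and 19.1 in culture (log2 1.84, SE 0.18, limma adjusted p = 3.67e-05). Pcdhb22 had 179, 195 and 249 against 52.0, 66.9 and 63.0 (log2 1.75, SE 0.168, limma adjusted p = 3.29e-05). Each tumour library was well above each culture library.

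Pcdhb18 (log2 1.70), Pcdhb17 (1.60) and Pcdhb20 (1.55) were higher in WT GFP+ cells too, with limma adjusted p of 0.000288, 0.00104 and 8.49e-05. The C-type gamma genes rose except Pcdhgc3. Values were higher for Pcdhgc5 (log2 1.12, SE 0.194, limma adjusted p = 0.00105) and for Pcdhgc4 (0.82, SE 0.222, limma adjusted p = 0.0106). Pcdhgc3, the most abundant member, was at 2484 ± 134 in WT GFP+ and 2496 ± 28.6 in culture (log2 -0.01, SE 0.0519, limma adjusted p = 0.897). With quantile normalization its direction turned (log2 0.14, limma adjusted p = 0.0253). Pcdhga7 had 19 reads in WT GFP+ and 1 in culture, a ratio of 18.9 with an exact interval of 3.01 to 786.

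In Pfp/Rag2 GFP+ cells 22 of 28 tested members were higher than in culture and 1 lower, where 72.2% of all 14487 genes were called, 35.1% higher and 37.1% lower. The higher ones were 17 beta and 5 gamma genes, and 17 beta genes were tested. Pcdhb6 to Pcdhb10, Pcdhb12, Pcdhga5 and Pcdhgb2 stayed under 10 in culture and passed the filter through the tumour cells alone. Of the other 11 tested beta genes 11 were higher. Pcdhb11 had 167, 210.3 and 163 against 19.8, 11.3 and 13.4 in culture (log2 3.54, SE 0.226, limma adjusted p = 1.27e-06). Pcdhb18 had 196, 178 and 198 against 25.5, 27.3 and 28.6 (log2 2.77, SE 0.134, limma adjusted p = 2.34e-07). In both, each tumour library was above each culture library. Among those under 10 in culture, given with no test, Pcdhb10 had 100.5, 101 and 93.0 against 8.50, 6.6 and 7.63. Pcdhb8, Pcdhb7 and Pcdhb9 had means of 1.26, 1.57 and 3.16 in culture and 35.5, 21.4 and 36.1 in Pfp/Rag2 GFP+ cells. Pcdhb6 had 58 reads against 1, a ratio of 56.2 with an exact interval of 9.69 to 2260.

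Pcdhgc3 was the 1 member called lower in Pfp/Rag2 GFP+ cells than in culture (1887 ± 33.7 against 2496 ± 28.6, log2 -0.40, SE 0.0367, limma adjusted p = 1.22e-05), and this call was lost with all 18 libraries in 1 fit (adjusted p = 0.329). Pcdhga6 was higher (log2 1.45, SE 0.0914, limma adjusted p = 1.19e-06), as was Pcdhgb1 (0.83, SE 0.113, limma adjusted p = 0.00016). Pcdhgc5 (0.56, limma adjusted p = 0.0529) and Pcdhgc4 (0.12, limma adjusted p = 0.648) were not called. Of the members called higher in 1 host, 6 in Pfp/Rag2 and 1 in WT were not tested against culture in the other host. Cell type marker lists also differed from culture. Macrophage markers summed to 149.9 to 154.5 in culture against 5057 to 11460 in the tumour GFP+ libraries, and neuron markers to 97.3 to 128.2 against 392.4 to 868.5. Summed oligodendrocyte markers were higher in culture, at 35900 to 38170 against 4391 to 11280. Summed astrocyte markers were too, at 3627 to 3789 against 1571 to 2827. Single markers went both ways. Of 7 tested oligodendrocyte markers, 4 were higher and 3 lower in tumour GFP+ cells of each host. Mobp, Opalin and Ermn had no read in culture. Of astrocyte markers, 1 was higher and 3 lower of 5 tested in WT, and 3 higher and 2 lower of 6 in Pfp/Rag2. The part of these marker lists in the difference from culture was not tested.

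GFP- cells, in which 12 macrophage and microglia markers summed to 268300 to 312100, had far less of the clusters than GFP+ cells of WT tumours. These fractions were tested without pairing. Of 25 tested members 2 were higher and 22 lower, where 76.4% of all 16083 genes were called, 42.7% higher and 33.7% lower. With quantile normalization the median of all genes moved from 0.19 to -0.22, and the split of calls from 6871 higher and 5412 lower to 5401 and 7033. Pcdhb21 had 1.47, 6.16 and 19.7 in GFP- and 172, 165 and 188 in GFP+ (log2 -4.62, SE 0.737, limma adjusted p = 0.00131). Pcdhgc3 had 70.6, 84.7 and 272 against 2443, 2633 and 2375 (log2 -4.39, SE 0.486, limma adjusted p = 0.000295). GFP- library 3 was the highest in both genes.

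Pcdhgb1 (log2 -4.33) and Pcdhb16 (-3.75) were also lower in GFP- cells, with limma adjusted p of 0.000366 and 0.000709. Neither gene reached 10 in every GFP- library. Of the 22 lower members 7 stayed under 10 in GFP- cells and passed the filter through GFP+ cells alone, among them Pcdhb19 (4.10 ± 3.95 against 71.6 ± 5.0) and Pcdhb15 (1.86 ± 1.62 against 44.9 ± 0.918). Pcdhb8 and Pcdhb12 had no read in GFP- cells and were at least 2.04-fold and 3.36-fold lower against a floor of 3 reads per library. The higher ones were Pcdhgb4 and Pcdhgb6. Pcdhgb4 had 10.3, 12.3 and 13.1 against 4.79, 4.75 and 2.76 and passed the filter through GFP- cells alone. Pcdhgb6 was called, with 19.1, 21.6 and 19.7 against 9.58, 6.65 and 11.1 (log2 1.09, SE 0.305, limma adjusted p = 0.0153). Of its GFP+ libraries only that at 11.1 reached 10. Neither call held with quantile normalization (log2 0.19 and 0.31, not called) or with DESeq2 (adjusted p = 0.0607 and 0.0666).

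Regulators of the clusters were followed as lists, in the host comparison of GFP+ cells and against culture. The first list held CTCF, cohesin and related genes, and not all of them, Rest among these, are activators of the clusters. Of its 21 tested genes, 4 were higher and 3 lower in WT than in Pfp/Rag2 GFP+ cells. That was 33.3% called, against 30.4% of all genes. Ctcf, which anchors the promoter contacts, was at 2129 ± 67.7 and 2001 ± 66.1 and was not called (log2 0.09, limma adjusted p = 0.211), nor was the cohesin gene Rad21 (0.07, limma adjusted p = 0.38). Called ones were Rest (0.49), Taf7 (0.38) and Smc1a (0.24), which were higher, and Nsd1 (-0.40), Tet3 (-0.27) and Mau2 (-0.17), which were lower. Against culture the counts were 5 higher and 8 lower in WT and 6 and 13 in Pfp/Rag2 GFP+ cells, or 61.9% and 90.5% called against 65.6% and 72.2% of all genes. Nsd1, a histone methyltransferase gene, rose in both (1.43 and 1.83), and Tet1 fell in both (-0.61 and -0.56).

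Of 22 silencing genes (DNA methylation and heterochromatin), 3 were higher and 4 lower in WT than in Pfp/Rag2 GFP+ cells, or 31.8% called, near the 30.4% of all genes. Dnmt3b, a de novo DNA methyltransferase gene, was at 82.6 ± 1.69 in WT, 139.8 ± 13.4 in Pfp/Rag2 and 112 ± 6.46 in culture, and its host difference was called (log2 -0.75, SE 0.135, limma adjusted p = 0.00777). Dnmt3a (-0.55) and Lrif1 (-0.40) were lower in WT, and Uhrf1 (0.28), Suv39h1 (0.27) and Dnmt1 (0.19) were higher. Smchd1 did not differ detectably between hosts (log2 0.02, limma adjusted p = 0.809) and was lower than in culture in both (-0.39 and -0.41). Against culture 3 silencing genes were higher and 9 lower in WT, and 4 and 11 in Pfp/Rag2 GFP+ cells, or 54.5% and 68.2% called, below the 65.6% and 72.2% of all genes. Among them Lrif1 rose in both (0.61 and 1.02) and Cbx1 fell in both (-0.76 and -0.90).

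Of 26 tested signalling and processing partners, 2 were higher and 4 lower in WT than in Pfp/Rag2 GFP+ cells, or 23.1% called against 30.4% of all genes. Wasf1, a gene of the WAVE complex that builds branched actin, was lower (log2 -0.68), as were Wasf3 (-0.36) and Psen2 (-0.33), while Ncstn (0.24) and Src (0.22) were higher. Against culture 6 were higher and 17 lower in WT, and 5 and 14 in Pfp/Rag2 GFP+ cells. These were 88.5% and 73.1% called, against 65.6% and 72.2% of all genes, so the Pfp/Rag2 share was near that of all genes. Wasf1 rose (0.82 and 1.50), and the kinase gene Prkca (-2.30 and -2.28) and Nckap1 (-1.12 and -1.07) fell.

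The non-clustered protocadherins, single genes outside the 3 clusters, moved in both directions. Of 8 tested between hosts 62.5% were called, against 30.4% of all genes. Pcdh18 (log2 1.66), Pcdh1 (1.45) and Pcdh9 (0.56) were higher in WT GFP+ cells, and Pcdh17 (-0.41) and Pcdh10 (-0.26) were lower. Against culture 4 of 7 were higher and 2 lower in WT, and 5 of 8 higher and 3 lower in Pfp/Rag2 GFP+ cells. These were 85.7% and 100.0% called, against 65.6% and 72.2% of all genes. Pcdh15 (4.76 and 5.29), Pcdh10 (4.30 and 4.56) and Pcdh17 (1.86 and 2.27) rose in both, and Pcdh1 fell in both, from 3505 ± 224 in culture to 449 ± 43.4 in WT and 166 ± 30.5 in Pfp/Rag2 GFP+ cells (log2 -2.97 and -4.41).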

How the data were processed

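Each deposited value is a normalized count (unit signal) for 1 gene in 1 library: the authors divided reads by a size factor. STAR 2.5.2b, DESeq2 and GRCm38 stand in the submitters' processing notes, which name no counter and no annotation. All values (100.0%) were whole multiples of 1 step per library within 0.05, so reads were recovered. The table gave 48435 of 48795 genes a GENCODE vM21 name; 1 of 2 genes named Pcdha11 there is called Pcdha10, its name at that place in RefSeq (GRCm38.p6), and Pcdhgb8 is no protein-coding gene there.

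Genes at 10 or more in at least 3 libraries of a comparison were tested as log2(normalized count + 1) with limma 3.58.1 (trend, two-sided) in R 4.3.3, on the comparison's groups alone, with Benjamini-Hochberg adjustment over all genes tested. The code was tested on simulated data. Alternatives were the quasi-likelihood test of edgeR 4.0.16 and DESeq2 1.42.0, both on recovered reads, other filters, pseudocounts and scalings, all 18 libraries in 1 fit, a replicate block, single libraries left out, and other lengths for the isoform shares. Intervals used scipy 1.17.1.

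Same-numbered libraries of the WT and Pfp/Rag2 GFP+ groups deviated together (r = 0.616, 0.483 and 0.102 across genes). Each r was over 0.1, so the numbers were taken as a possible pairing, from the data and not from the labels. Of unlike numbers, WT library 2 with Pfp/Rag2 library 3 had r = 0.443, and the others were at 0.067 or lower. The pairing is therefore uncertain. The main host test did not use it, and it entered only as the replicate block. Members and gene lists were chosen with earlier results of these data known. Named members are the 4 highest per kb of each cluster in GFP+ cells, the C-type genes and for each comparison at most 6 called members per direction, by size; lists give up to 3 called genes each way, plus Ctcf, Rad21, Smchd1 and Dnmt3b. Other members named (Pcdhb1, Pcdhb4, Pcdhga5, Pcdhga7, Pcdhga10 among them) were picked after their values were seen.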

Additional observations from a re-analysis of the deposited data

Results flagged for a closer look

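The host difference of Pcdhb21, a leading beta gene in tumour cells, differed between sorted and unsorted cells by a log2 of 0.98 (0.977 before rounding, SE 0.17, limma adjusted p = 0.0312). WT lay below Pfp/Rag2 by 0.27 in GFP+ cells and by 1.25 in unsorted tumours on the log2 scale. The call was lost with edgeR (adjusted p = 0.0575), with all 18 libraries in 1 fit (limma adjusted p = 0.523) and without both GFP+ libraries numbered 1 (limma adjusted p = 0.128).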

How the results depend on the processing

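Of 1295 values for named genes under alternatives, 1226 kept direction and side of the threshold, 51 lost and 17 gained a call, and 1 turned: Pcdhgc3 in WT GFP+ against culture, at 0.14 with quantile normalization. With a filter at 50, members called fell to 11 of 16 tested (host, GFP+), 14 of 14 (Pfp/Rag2 GFP+ against culture) and 13 of 13 (GFP- against GFP+). Fewer members were tested there, and 3 were called for the interaction. Over all genes, 2245 of 11890 were then higher and 2077 lower for hosts in GFP+ cells. These were 3842 and 5083 of 11805 for Pfp/Rag2 GFP+ against culture, and 5605 and 4695 of 12965 for GFP- against GFP+ cells. With all 18 libraries in 1 fit, the host count in GFP+ cells was 9 and the interaction 0; without both libraries numbered 1 they were 9 and 0; the cause was not tested. The interaction count was 2 with quantile normalization, 0 with edgeR and 4 with DESeq2, and over all genes quantile normalization gave 157 higher and 113 lower in place of 115 and 36. Leaving out 1 library gave 13 to 18 members called for hosts in GFP+ cells, 14 to 22 in unsorted tumours (lowest without Pfp/Rag2 library 2), 16 to 17 and 21 to 23 against culture for WT and Pfp/Rag2, 21 to 24 for GFP- cells and 0 to 4 for the interaction. For hosts in GFP+ cells, all-gene calls then ran from 1380 to 2689 higher and from 1137 to 2843 lower of 14807. With the replicate block the counts were 18, 19, 17, 22, 24 and 1 in that order, within 1.5 times of the counts without it; outside the sorted host pair the numbers did not meet the bar for pairing (each r over 0.1), with r = -0.224, 0.109 and -0.41 in unsorted tumours and 0.212, 0.0679 and 0.32 for GFP- with GFP+ cells, whose titles share p numbers that the labels do not explain. The Pcdhgc3 share became 75.9%, 68.5% and 84.5% in WT GFP+, Pfp/Rag2 GFP+ and culture with the whole exonic length, 76.1%, 69.1% and 84.5% with no length, 83.0%, 77.0% and 89.3% with bases free on either strand, and 66.1% and 83.7% in the last 2 groups with members under 10 left out. The effective number of beta genes became 12.8 (whole length), 11.8 (no length), 10.6 (members under 10 left out) and 12.8 (either strand) in WT GFP+, 13.8 and 13.9 (no length, under 10 left out) in Pfp/Rag2 GFP+, and 12 and 9.37 in culture. Depth limits the alpha genes and Pcdhb1 to Pcdhb4, most of them at few reads a library.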

Other observations

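Protein-coding genes next to the clusters, chosen by position after the member values were seen, were read in the same fits: the 5 nearest before alpha, Slc25a2 and Taf7 between beta and gamma, and the 5 nearest after gamma. Between hosts in GFP+ cells, limma called 2 of 12 higher in WT and 0 lower; the share called higher (16.7%) is near that of all genes (15.3%), and 0 were lower at an unadjusted p under 0.05 or by edgeR or DESeq2. These were Taf7, a subunit of the general transcription factor TFIID (443 ± 34.5 in WT and 339.5 ± 3.68 in Pfp/Rag2, log2 0.38, SE 0.0827, limma adjusted p = 0.015), and the histidine tRNA synthetase gene Hars (log2 0.27, limma adjusted p = 0.00846). Against culture, Taf7 rose in WT (log2 1.02, limma adjusted p = 3.77e-05) and in Pfp/Rag2 GFP+ cells (0.64, limma adjusted p = 0.000142). Slc25a2, a mitochondrial carrier gene, also rose (1.91 and 1.35, limma adjusted p = 0.00186 and 0.00943). Diaph1, a formin gene just after Pcdhgc5, was not called between hosts (log2 -0.09, limma adjusted p = 0.432) or against culture (-0.05 and 0.04, limma adjusted p = 0.469 and 0.657).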
